A study of Mus musculus with 16 samples.

Results

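Mechanotransduction was described here through 7 genes, *Piezo1*, *Piezo2*, *Asic1*, *Asic2*, *Asic3*, *Whrn* and *Tmem150c*, picked by name as channels and accessory proteins of mechanosensory endings out of the 49671 genes counted. Proprioceptors are the dorsal root ganglion (DRG) neurons that report muscle length and tension. *Piezo2* encodes the stretch-gated cation channel on which proprioception and light touch depend, and *Piezo1* its relative, known mainly from vessels, blood cells and connective tissue. The *Asic* genes encode acid-sensing subunits of the sodium channel family that also holds the touch channels of worms, *Whrn* encodes whirlin, a scaffold protein of hair cell stereocilia and of the Usher protein network, and *Tmem150c* (tentonin 3) encodes a membrane protein linked to slowly adapting mechanical currents.

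Single tdTomato+ DRG cells were sequenced with CEL-Seq2, a plate method that tags the 3′ end of each transcript with a unique molecular identifier (UMI). The 10 libraries of embryonic day (e) 15.5 came from PvtdTom mice, which express tdTomato from a parvalbumin transgene, and the 6 libraries of postnatal day (p) 1 came from Trpv1Cre; PvFlp; Ai65 mice, where both recombinases must have acted, and PvCre; Ai14 mice. The study took thoracic and lumbar DRG at both stages. It reported that the Trpv1Cre; PvFlp; Ai65 cross labels only a subset of proprioceptors, which innervate back muscles, so the lines can differ in the proprioceptor subtypes they hold. Cells of e15.5 were sorted by fluorescence and cells of p1 were, by the study's methods, picked by hand, although the labels give sorting for both. Stage, mouse line and isolation therefore changed together and cannot be told apart, and the labels tie no library to a line, a segmental level or an animal, so the p-values below measure the spread between libraries only.

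Wells with at least 10000 UMIs were kept, 871 of 960 at e15.5 and 369 of 576 at p1, where 1 library (replicate 3) kept only 12. The wells were grouped by expression, with the 7 genes left out of the grouping, and 284 wells at e15.5 and 351 at p1 were proprioceptor-like by *Pvalb*, *Runx3*, *Etv1* and *Ntrk3*, whose summed level was 4237 to 4889 in counts per 1e6 UMIs (CPM) in the e15.5 libraries and 3155 to 4370 in the p1 libraries. The median proprioceptor-like well held 114666 UMIs at e15.5 and 51190 at p1. The other named e15.5 wells were 378 connective-tissue-like, 50 glia-like, 22 nociceptor-like and 30 neurons with glial transcripts, and 107 stayed unnamed, while the other 18 p1 wells were neurons with glial transcripts. All 4 proprioceptor markers were found in the neurons with glial transcripts too, which were kept apart for their glial RNA. The proprioceptor-like wells were 32.6% of the e15.5 wells kept and 95.1% of the p1 wells, and the connective-tissue-like wells went against the tissue label "proprioceptive sensory neurons". The glia-like wells held neuronal RNA beside glial RNA. In them 3 of the 4 proprioceptor markers and all 6 sensory neuron markers were each found in a share of at least 0.5 of the wells after thinning. Levels below are CPM of the UMIs summed over the wells of a class in 1 library.

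The question was whether these genes were already on in proprioceptors at e15.5 or came on by p1. *Whrn* rose 4.94-fold, *Asic2* 2.14-fold and *Piezo2* 1.89-fold from e15.5 to p1 in proprioceptor-like wells. Of these *Whrn* alone kept its call with *Malat1*, a nuclear RNA that itself moved with stage, as a covariate. These folds rest on the scaling factors of edgeR. With plain library sizes the log2 fold changes were smaller, at 2.10 for *Whrn*, 0.88 for *Asic2* and 0.71 for *Piezo2*, in place of 2.30, 1.10 and 0.92. *Asic3* was lower at p1, at 0.670 of its e15.5 level, in a call that several alternatives lost, and *Asic1* and *Tmem150c* did not pass the test. *Piezo1* was almost absent from proprioceptor-like wells at both stages. Of the 6 members tested, 4 passed the threshold of 0.05 (edgeR quasi-likelihood test, Benjamini-Hochberg adjusted over 13581 genes). Over all genes tested 61.1% passed, 30.3% higher and 30.8% lower at p1, so the share of members called is close to that of all genes.

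**Figure D1:**
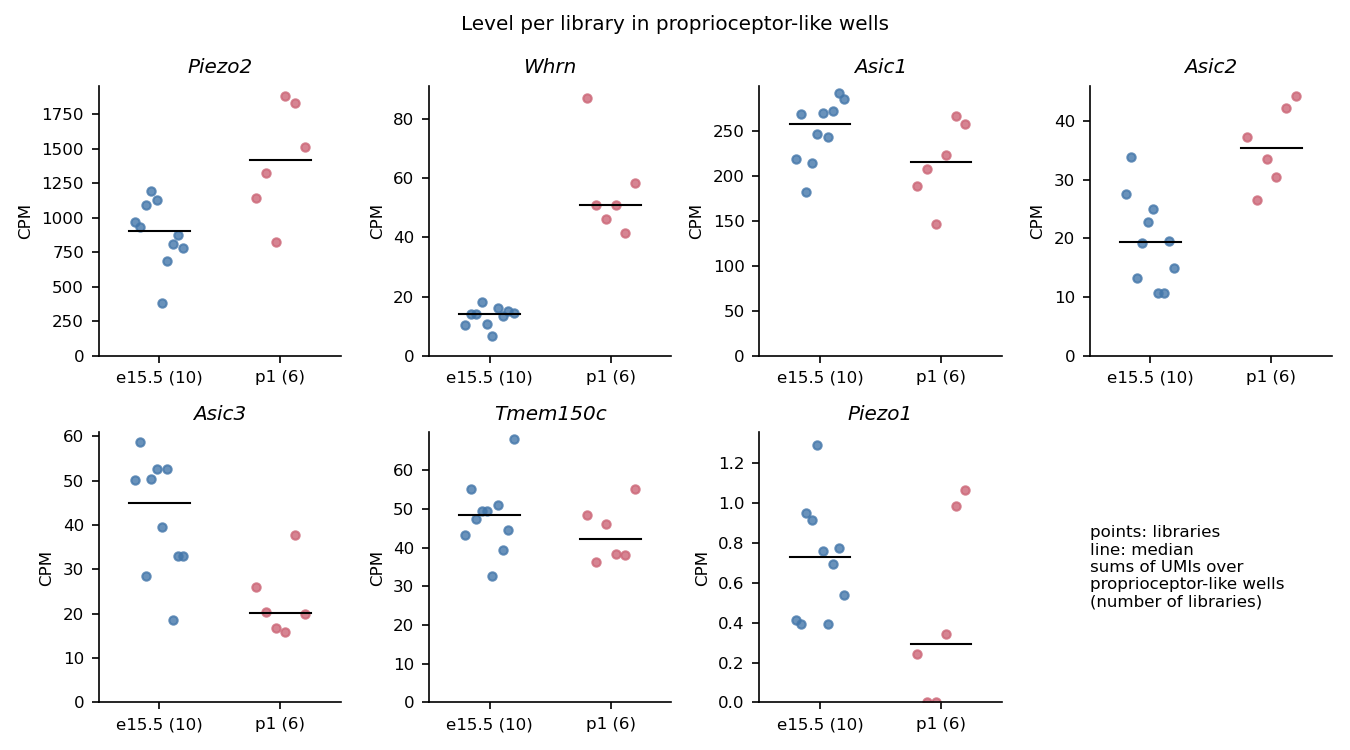
Level of each gene in CPM (linear axis from 0) in proprioceptor-like wells, with 1 point per library and a line at the median, for 10 e15.5 and 6 p1 libraries. Only the *Whrn* panel shows no overlap between the stages (6.83 to 18.3 against 41.5 to 87.0 CPM).

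*Piezo2* was found in nearly every proprioceptor-like well. Its level in the 10 e15.5 libraries ran from 386 CPM over a median of 905 to 1195, and in the 6 p1 libraries from 826 over a median of 1419 to 1879.9. Of the p1 libraries, 4 lay above every e15.5 library, while the shallow replicate 3 lay below the e15.5 median, so the stages overlapped. The log2 fold change was 0.92 ± 0.20 (SE, edgeR adjusted p = 0.00047). When every well was thinned to 10000 UMIs, 95.8% of e15.5 wells (272 of 284) and all 351 p1 wells held at least 1 *Piezo2* UMI (exact 95% intervals from 92.7% to 97.8% and from 99.0%). In connective-tissue-like wells of e15.5, whose median depth was 28469 UMIs, the thinned share was 50.5% (191 of 378).

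The size of the *Piezo2* difference moved with the depth of the wells, and *Malat1* moved with it. In wells of 10000 to 25000 UMIs *Piezo2* stood at 449 CPM at e15.5 and 2427 at p1, and in wells of at least 100000 UMIs at 882 and 1108, where the libraries overlapped (733 to 1233 against 985 to 1383). *Malat1*, a long RNA that stays in the nucleus, was at 1895 against 20424 CPM in the shallow wells and 5925 against 6101 in the deep ones. In the 8 p1 proprioceptor-like clusters *Piezo2* ran from 944 CPM in the deepest, where *Malat1* was at 5131, to 2799 in one led by *Malat1* and *Meg3*, where *Malat1* was at 23570. The r between the thinned counts of the 2 genes over the wells of a library had a median of 0.63 over 8 e15.5 libraries and 0.59 over 6 p1 libraries, which hold at least 10 proprioceptor-like wells each. This r is a description only, since both counts come from the same wells and libraries. The e15.5 value of the shallow wells rests on 24 wells, with *Malat1* at 301 and 3392 CPM in the 2 libraries with at least 5 of them. The median mitochondrial share of the proprioceptor-like wells was 5.13% at e15.5 and 10.9% at p1, and ran down to 0.64% in e15.5 cluster 9, where *Malat1* was at 547.5 CPM and *Piezo2* at 218, and up to 21.2% in p1 cluster 7, where *Piezo2* was at 2681. The part of the mitochondrial share in the stage difference was not tested.

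A fit restricted to wells of at least 100000 UMIs, with 9 e15.5 and 4 p1 libraries, kept the *Piezo2* call at a log2 fold change of 0.45 ± 0.12. With the log2 *Malat1* level of each library as a covariate the log2 fold change was 0.00 ± 0.24 (edgeR adjusted p = 0.99). *Malat1* itself moved with stage, from 4361 to 7132 CPM at e15.5 and 7055 to 12222 at p1, so stage and this covariate overlap in the fit and their parts cannot be told apart.

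**Figure D2:**
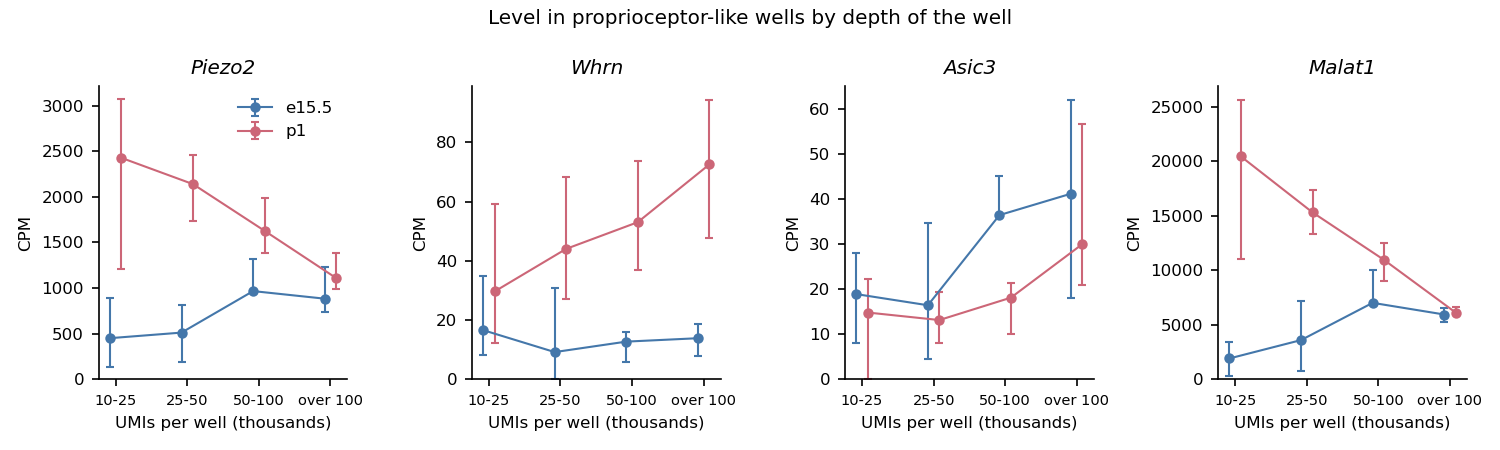
Level in CPM (linear axis from 0) of *Piezo2*, *Whrn*, *Asic3* and *Malat1* in proprioceptor-like wells pooled by stage and by UMIs per well, with bars for the range over libraries with at least 5 such wells, drawn from the pooled value. The stages draw together in deep wells for *Piezo2* (882 and 1108 CPM) and *Malat1* (5925 and 6101), and draw apart for *Whrn* (13.8 and 72.5).

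*Piezo1* gave 23 UMIs in all proprioceptor-like wells of e15.5 and 11 in those of p1. Its level was 0.394 to 1.29 CPM in the e15.5 libraries and 0 to 1.07 in the p1 libraries, and it fell to the filter on low counts in the stage test. After thinning, 3 of 284 and 2 of 351 wells held a UMI. The gene lies on the minus strand at chr8:122481698-122551329 (GRCm38), where its end overlaps *Ctu2* on the plus strand (1101 UMIs in the e15.5 wells), and the sources do not say if counting used the strand.

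Among the acid-sensing subunits, *Asic1* did not pass the stage test. Its level ran from 182 over 257 to 292 CPM at e15.5 and from 147 over 215 to 266 at p1, with overlapping libraries. The log2 fold change was 0.04 ± 0.12 (edgeR adjusted p = 0.80), and it took the opposite sign, at -0.17, with plain library sizes in place of the TMM scaling factors of edgeR, a change that moved the median log2 fold change of all genes from -0.02 to -0.23. With plain sizes the calls over all genes split into 3055 higher and 5613 lower in place of 4121 and 4182. The thinned share of wells with *Asic1* was 89.1% (253 of 284) at e15.5, 81.2% (285 of 351) at p1 and 7.67% in connective-tissue-like wells.

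*Asic2* rose from e15.5 to p1. Its level ran from 10.7 over 19.4 to 33.9 CPM at e15.5 and from 26.6 over 35.4 to 44.3 CPM at p1. All 6 p1 libraries lay above the e15.5 median and 3 above every e15.5 library. The log2 fold change was 1.10 ± 0.21 (edgeR adjusted p = 0.00015), and in wells of at least 100000 UMIs it was 1.16 ± 0.25. With *Malat1* as a covariate the call was lost (0.76 ± 0.37, edgeR adjusted p = 0.14). The thinned share of wells with *Asic2* was 17.6% at e15.5 (0% to 28.0% by library) and 25.6% at p1 (15.7% to 33.3%), ranges that overlap, against 0.265% in connective-tissue-like wells.

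*Asic3* was the member that was lower at p1. Its level ran from 18.6 over 44.8 to 58.7 CPM at e15.5 and from 15.8 over 20.2 to 37.8 CPM at p1, and all 6 p1 libraries lay below the e15.5 median although the ranges overlapped. The log2 fold change was -0.58 ± 0.23 (edgeR adjusted p = 0.034). The call was lost in 8 of 16 fits that left out 1 library, namely without e15.5 replicate 1, 2, 5 or 7 or p1 replicate 1, 2, 4 or 6 (adjusted p up to 0.086), and in wells of at least 100000 UMIs (-0.31 ± 0.31, adjusted p = 0.42, edgeR). The thinned share of wells with *Asic3* was 29.9% at e15.5 and 14.0% at p1, against 1.85% in connective-tissue-like wells. Over the 4 e15.5 proprioceptor-like clusters *Asic3* ran from 12.7 to 66.2 CPM, and over the 8 p1 clusters from 5.53 to 37.0.

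*Whrn* showed the clearest change with stage. The e15.5 libraries held 6.83 to 18.3 CPM with a median of 14.2, and the p1 libraries held 41.5 to 87.0 with a median of 51.0. Every p1 library lay above every e15.5 library, a pattern found in the same direction for 6.70% of the tested genes, with 19.3% the other way round and 26.0% in either direction. The log2 fold change was 2.30 ± 0.16 (edgeR adjusted p = 5.5e-10), and lay between 2.10 and 2.69 under all alternatives run for it. The thinned share of wells with a *Whrn* UMI was 12.3% (35 of 284, exact 95% interval 8.74% to 16.7%) at e15.5 and 33.0% (116 of 351, 28.1% to 38.2%) at p1, intervals that cover counting error only. At e15.5 that share was no higher than the 14.8% (56 of 378 wells, median 28469 UMIs) of connective-tissue-like wells. By depth, *Whrn* stood at 29.6 CPM in p1 wells of 10000 to 25000 UMIs and at 72.5 in wells of at least 100000, against 16.5 and 13.8 at e15.5. The 8 p1 clusters spread from 18.0 to 86.9 CPM and the 4 e15.5 clusters from 9.63 to 15.3.

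The starts of the member with the largest rise and of the member that was lower at p1 are shown, as the members called with the largest rise and with a decrease. Each is the RefSeq window of 250 bases before to 50 bases after the gene start (GRCm38.p6), 5′ to 3′ on the gene's strand, with CG dinucleotides in capitals. *Whrn* is at chr4:63495942-63496241 on the minus strand and *Asic3* at chr5:24413201-24413500 on the plus strand.
Whrn: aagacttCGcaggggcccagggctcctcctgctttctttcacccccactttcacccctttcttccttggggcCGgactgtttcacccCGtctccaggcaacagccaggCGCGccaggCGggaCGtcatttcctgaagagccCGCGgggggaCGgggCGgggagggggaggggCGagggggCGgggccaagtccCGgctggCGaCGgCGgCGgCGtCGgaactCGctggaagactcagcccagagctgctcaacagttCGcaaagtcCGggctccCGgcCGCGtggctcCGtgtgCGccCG
Asic3: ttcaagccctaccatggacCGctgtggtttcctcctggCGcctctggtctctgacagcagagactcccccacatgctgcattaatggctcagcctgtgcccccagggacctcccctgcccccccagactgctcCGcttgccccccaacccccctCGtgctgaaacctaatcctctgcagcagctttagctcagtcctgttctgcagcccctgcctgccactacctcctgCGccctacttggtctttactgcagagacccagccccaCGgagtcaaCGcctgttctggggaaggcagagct
The *Whrn* window held 29 CG dinucleotides, a number that 12.9% of the 32851 windows reach, and the *Asic3* window held 7, which is the median over all windows. The number did not go with the course, since the 3 windows of *Tmem150c* held 13 to 37, that of *Piezo1* 34, those of *Asic2* 9 and 16 and that of *Asic1* 7. The core TGTGGT or TGCGGT read by Runx proteins, searched on both strands, a match being letters in a window and not a bound site, was found in 22.4% of all windows and, among the 6 members with a window, in that of *Asic3* alone, 228 bases before the start. The motif CCGGAA, a longer form of the site of ETS proteins such as Etv1, was found in 14.9% of all windows and in none of those of the members. The shorter core GGAA was not searched, and it occurs in both windows printed above.

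*Tmem150c* did not pass the stage test. Its level ran from 32.6 over 48.4 to 67.9 CPM at e15.5 and from 36.4 over 42.2 to 55.2 CPM at p1. The p1 range lay inside the e15.5 range. The log2 fold change was 0.06 ± 0.14 (edgeR adjusted p = 0.75), and -0.14 with plain library sizes. The thinned share of wells with a UMI was 41.9% at e15.5, 32.2% at p1 and 3.70% in connective-tissue-like wells. An antisense gene, *Tmem150cos*, lies across its end and held 22 and 30 UMIs in the proprioceptor-like wells of e15.5 and p1.

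**Figure D3:**
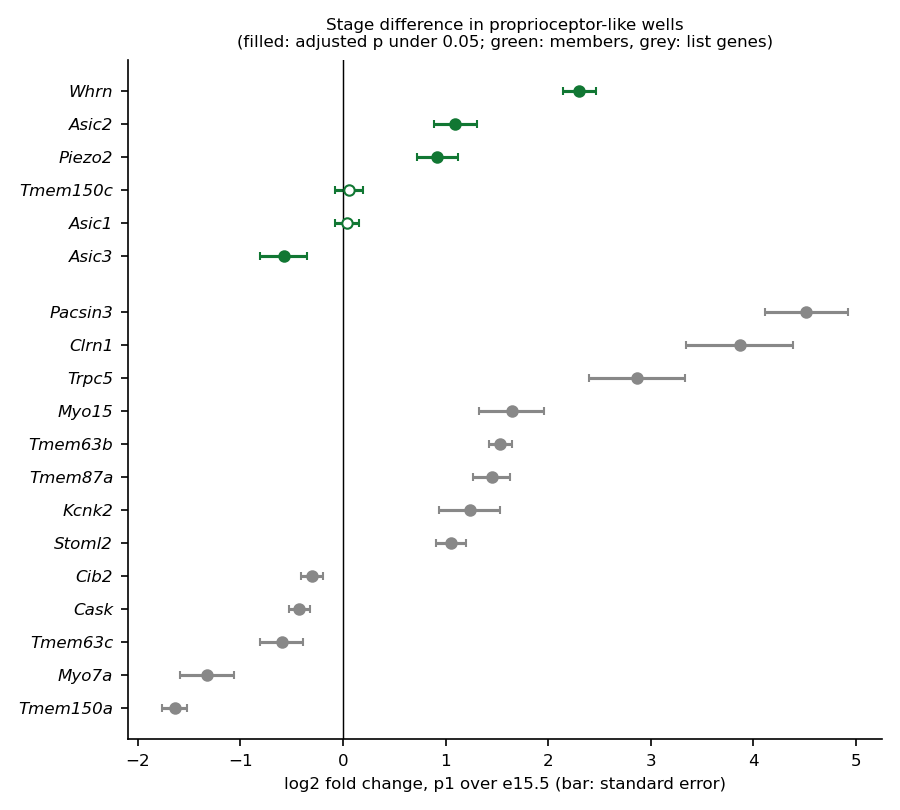
Log2 fold change of p1 over e15.5 in proprioceptor-like wells with its standard error, for the 6 members tested (green) and the named genes of the wider mechanosensory list (grey), filled where the adjusted p is under 0.05. *Whrn* (2.30) stands apart from *Asic2* (1.10) and *Piezo2* (0.92), and *Asic3* (-0.58) is the 1 member below 0 that passed.

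Markers of other cell types were present in the same wells, and some moved with stage. The 4 mechanoreceptor markers summed to 11.8 to 81.5 CPM at e15.5, with *Mafa* at 0, and to 101 to 271 at p1, without overlap. The 6 glial markers summed to 8.54 to 67.0 CPM at e15.5 and 88.9 to 436 at p1, also without overlap. The 7 connective tissue markers summed to 22.0 to 255 CPM with a median of 156 at e15.5 and to 107 to 2255 with a median of 232 at p1, and the 5 blood markers to 5.49 to 115 with a median of 39.7 and to 0.483 to 831 with a median of 16.7, so both overlapped. No glial, connective tissue or blood marker was at 0. Without the wells that held at least 3 of the 6 glial markers, *Whrn* (2.33), *Asic2* (1.13), *Piezo2* (0.94) and *Asic3* (-0.55) kept their calls. The part of mechanoreceptor, connective tissue and blood RNA in the stage differences was not tested.

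Across the e15.5 cell classes the question was which members set proprioceptor-like wells apart from connective-tissue-like, glia-like and nociceptor-like wells. The unnamed cluster 11, where all 6 sensory neuron markers were found, was not tested. Its highest library passed every proprioceptor-like one for *Piezo2* (1282 against 1195 CPM), *Asic3* (126 against 58.7) and *Tmem150c* (110 against 67.9). Its *Asic1* lay below every one and its *Asic2* inside their range. Against connective-tissue-like sums 5 members were higher and *Piezo1* was lower, where 78.0% of the 14034 genes tested passed (36.7% higher, 41.3% lower). *Piezo1* was at 8.37 to 79.2 CPM with a median of 48.0 over 9 connective-tissue-like libraries, above every proprioceptor-like library (log2 fold change -6.18 ± 0.34, edgeR adjusted p = 1.9e-16). *Asic3* (4.92 ± 0.37), *Asic1* (4.61 ± 0.24), *Asic2* (4.29 ± 0.41), *Piezo2* (3.07 ± 0.31) and *Tmem150c* (2.99 ± 0.31) were higher, with edgeR adjusted p of at most 3.3e-10. *Whrn* did not pass, at 0 to 23.3 CPM in connective-tissue-like libraries (-0.42 ± 0.22, edgeR adjusted p = 0.085). It was called lower in proprioceptor-like sums with sums of at least 10 wells (-0.53, edgeR adjusted p = 0.022), with quantile filters on the wells (-0.51, edgeR adjusted p = 0.041), without replicate 10 (-0.49, edgeR adjusted p = 0.049) and with DESeq2 (-0.47, adjusted p = 0.037).

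RNA of the proprioceptor markers was also found in connective-tissue-like wells. The pooled connective-tissue-like level was 2.69% (*Etv1*) to 9.30% (*Runx3*) of the proprioceptor-like level for the 4 markers, and 3.03% for *Asic3*, 3.54% for *Asic1*, 4.98% for *Asic2*, 11.4% for *Piezo2* and 11.7% for *Tmem150c*. For *Whrn* it was 133%. Thus 3 members lay within the range of the markers, and *Piezo2*, *Tmem150c* and *Whrn* lay above it, as did *Piezo1*.

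Glia-like sums were lower than proprioceptor-like sums for 6 members, where 45.1% of genes passed (24.6% higher, 20.5% lower). The log2 fold changes ran from 1.88 ± 0.26 for *Asic1* to 2.46 ± 0.38 for *Piezo2*, with edgeR adjusted p of at most 0.0065. *Piezo1* was lower in proprioceptor-like sums (-2.50 ± 0.96, edgeR adjusted p = 0.033), on 6 UMIs in all glia-like wells, which came from replicates 5 and 6. The call was lost without replicate 5 (-1.34 ± 1.30, edgeR adjusted p = 0.43) or replicate 6 (-2.14, edgeR adjusted p = 0.13). Proprioceptor markers were well above 0 in glia-like wells, with pooled levels of 819 CPM for *Etv1*, 192 for *Pvalb*, 321 for *Ntrk3* and 85.3 for *Runx3*, against 2060, 462, 1762 and 284 in proprioceptor-like wells. For the 6 members the pooled glia-like and proprioceptor-like levels were 164 against 876 CPM for *Piezo2*, 65.6 against 263 for *Asic1* and 5.41 against 18.8 for *Asic2*. They were 8.12 against 39.4 for *Asic3*, 3.38 against 13.5 for *Whrn* and 10.2 against 50.9 for *Tmem150c*. Whether these members differed more than the markers was not tested. When each well was classed by its own marker UMIs instead of its cluster, *Asic1* alone kept the call (2.50 ± 0.22).

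Nociceptor-like wells gave sums in 2 libraries only, and 16.2% of genes passed (7.95% higher, 8.29% lower in proprioceptor-like sums). *Asic1* was at 66.2 and 141 CPM there, below every proprioceptor-like library (1.30 ± 0.34, edgeR adjusted p = 0.0082). *Whrn* was at 21.4 and 45.3 CPM, above every e15.5 proprioceptor-like library (-1.28 ± 0.39, edgeR adjusted p = 0.022), and with the library as a block the adjusted p was 0.051. With 1 of the 2 libraries left out, a fit in which the lone sum is assumed to vary like the other groups, *Asic1* was at 0.95 ± 0.43 without replicate 3 (edgeR adjusted p = 0.21) and *Whrn* at -0.53 ± 0.60 without replicate 1 (edgeR adjusted p = 0.70). *Piezo2* was at 369 and 400 CPM and did not pass (1.25 ± 0.52, edgeR adjusted p = 0.11).

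**Figure D4:**
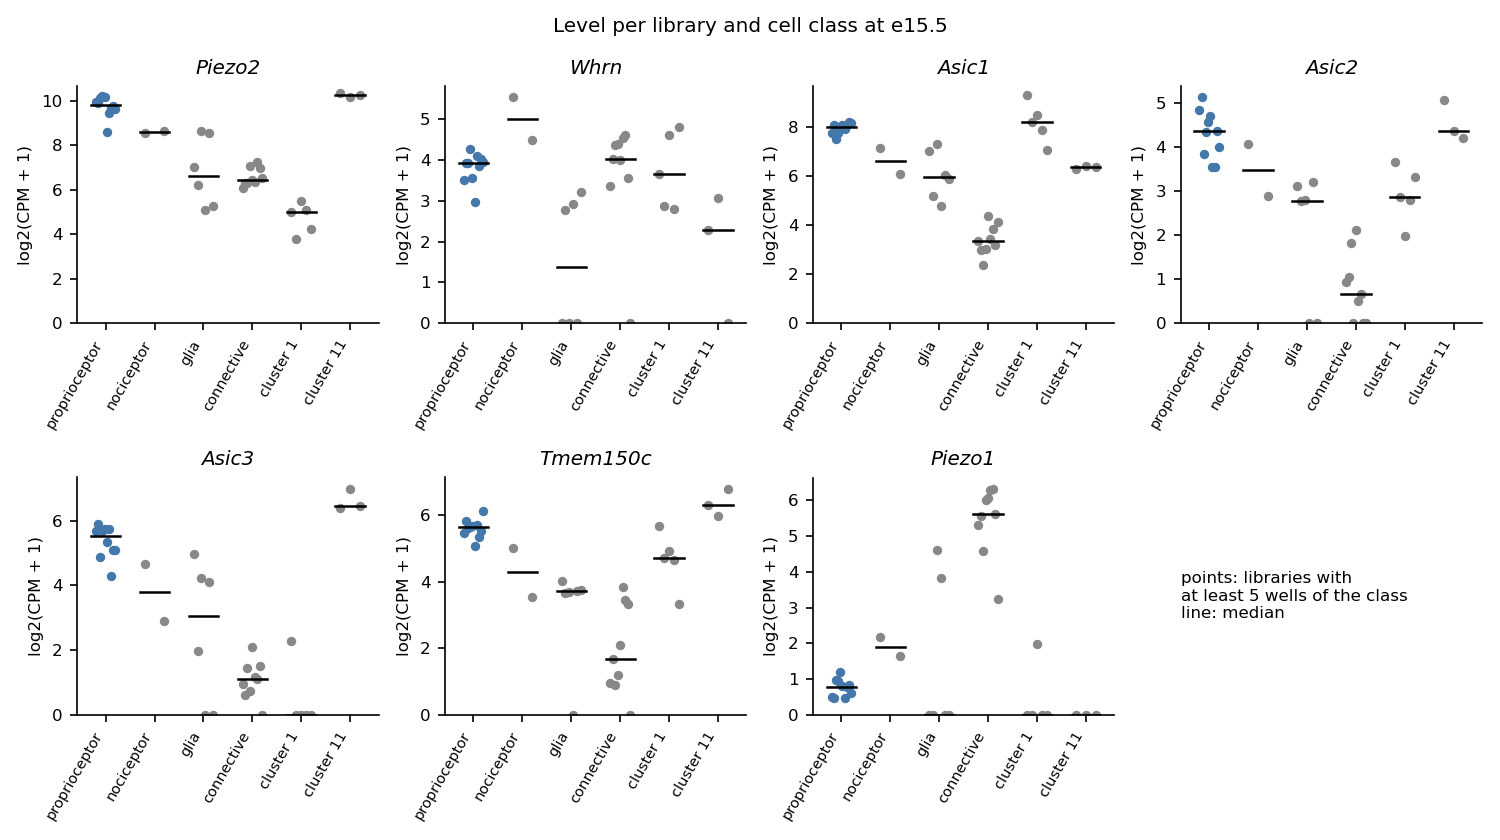
Level of each gene as log2(CPM + 1) in proprioceptor-, nociceptor-, glia- and connective-tissue-like wells of e15.5 and in the unnamed clusters 1 and 11. Each point is 1 library with at least 5 wells of the class, and the line is the median. *Piezo1* is highest in connective-tissue-like libraries (median 48.0 CPM), where the medians of *Asic1*, *Asic2* and *Asic3* are 9.23, 0.583 and 1.17 CPM.

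*Tox* and *Gabrg1* were named by the study as marks of back and hindlimb proprioceptors, and proprioceptor-like wells that held a UMI of only 1 of the 2 genes after thinning were compared within a stage. At e15.5, with 58 *Tox* wells, giving sums of at least 5 wells in 5 libraries, and 30 *Gabrg1* wells, giving sums in 3, *Asic1* was the 1 member called, where 3.37% of 10415 genes passed (1.39% higher and 1.98% lower in *Tox* sums). Its level was 217 to 265 CPM in *Tox* sums and 302 to 341 in *Gabrg1* sums, which do not overlap (-0.43 ± 0.11, edgeR adjusted p = 0.039). The call was lost with the library as a block (-0.37 ± 0.11, edgeR adjusted p = 0.12) and in each of the 5 fits that left out 1 library, replicate 1, 5, 8, 9 or 10 (edgeR adjusted p from 0.074 to 0.16). *Tmem150c* was at 41.8 to 56.1 CPM in *Tox* sums and 19.5 to 40.3 in *Gabrg1* sums and did not pass (0.85 ± 0.23, edgeR adjusted p = 0.061). Without replicate 10 it was called higher in *Tox* sums (edgeR adjusted p = 0.032).

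At p1, with 81 *Tox* wells and 70 *Gabrg1* wells, giving sums in 5 and 3 libraries, edgeR called 0 of the 6 members tested, as did DESeq2, where 0.962% of 10079 genes passed (0.238% higher and 0.724% lower in *Tox* sums). *Tmem150c* was the 1 member with an unadjusted p under 0.05 (0.95 ± 0.32, edgeR adjusted p = 0.36), at 14.2 to 78.0 CPM in *Tox* sums and 17.4 to 28.5 in *Gabrg1* sums. With the library as a block 308 genes passed in place of 97, and again 0 members. On simulated data of the same design the fit recovered 27% of 2-fold changes in genes drawn at random from all those tested. The members differ widely in level, and recovery at the level of each member was not read.

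A wider list of 56 genes of mechanosensation, channels, channel partners and proteins of the whirlin complex and stereocilia, was read beside the members. In the stage test 30 of the 56 could be tested, and 14 were higher and 5 lower at p1, where 61.1% of all genes tested passed (30.3% higher, 30.8% lower), with a median log2 fold change of 0.23 against -0.02 over all genes tested. With plain library sizes the counts were 11 and 10. Of the 11 channels tested 8 were higher and 1 lower, of the 11 partners 4 and 2, and of the 8 genes of the whirlin complex and stereocilia 2 and 2.

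*Pacsin3*, which encodes a membrane-bending partner of TRPV4, rose from 0 to 2.36 CPM at e15.5 to 4.19 to 21.4 at p1 (4.52 ± 0.40, edgeR adjusted p = 1.4e-08). *Tmem63b*, a gene of the OSCA and TMEM63 family of stretch-activated channels, rose from 94.9 to 133 CPM at e15.5 to 155 to 334 at p1 (1.53 ± 0.11, edgeR adjusted p = 8.3e-10). Neither gene's libraries overlapped between the stages. *Clrn1*, the Usher gene for clarin 1 (3.87), *Trpc5* (2.87), *Myo15*, the myosin that carries whirlin to stereocilia tips (1.65), *Tmem87a* (1.45), *Kcnk2*, the potassium channel TREK-1 (1.24), and *Stoml2* (1.05) were higher as well, as log2 fold changes with edgeR adjusted p of at most 0.0013. *Tmem150a*, a relative of *Tmem150c*, fell from 28.1 to 42.5 CPM at e15.5 to 7.74 to 11.7 at p1 (-1.64 ± 0.12, edgeR adjusted p = 1.3e-09). *Myo7a* (-1.33), *Tmem63c* (-0.60), *Cask* (-0.43) and *Cib2* (-0.30) were also lower, with edgeR adjusted p of at most 0.022.

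Between e15.5 proprioceptor-like and connective-tissue-like sums 13 of 30 list genes tested were higher and 12 lower, where 78.0% of all genes tested passed (36.7% higher, 41.3% lower). *Lhfpl5* (5.47), *Tmem63c* (4.85), *Kcnk10* (4.58), *Pcdh15* (2.67) and *Cib2* (2.38) had the largest log2 fold changes upwards among those past the threshold. *Lhfpl5*, *Pcdh15* and *Cib2* are genes of the hair cell transduction complex. *Mdfi* (-7.35) and *Mdfic* (-6.83), which encode auxiliary subunits of Piezo channels, *Tmem63a* (-6.38), *Pacsin3* (-4.69) and *Pkd2* (-3.83) had the largest downwards. *Mdfi* gave 5 UMIs and *Mdfic* 10 in all e15.5 proprioceptor-like wells, against 421 and 495 in the connective-tissue-like wells.

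Over the 37 sums of a library and class, the genes whose log2 CPM followed 6 of the members most closely among 14789 genes were *Gm43889* for *Piezo2* (Pearson r = 0.942), *Fcgrt* for *Piezo1* (0.924), *C530008M17Rik* for *Asic1* (0.983), *Dynlrb1* for *Asic2* (0.938), *Dnajc13* for *Whrn* (0.859) and *Spock1* for *Tmem150c* (0.937). The sums share libraries and differ in class and stage, so these values describe likeness of pattern only.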

How the data were processed

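Single tdTomato+ cells of 10 e15.5 and 6 p1 libraries of 96 wells each were analysed. The authors demultiplexed, mapped and counted the CEL-Seq2 reads with scruff and deposited raw UMI counts per gene and well, with mm10 and GRCm38 named as builds in the submitters' processing notes. The sources do not say if counting used the strand. No value column was left out (0 unused). The members and gene lists were chosen with earlier results of these data known.

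Wells with at least 10000 UMIs were clustered per stage with scran 1.30.0 (50 principal components, 10 neighbors, walktrap of igraph 2.1.4), with the members, the wider list, *Tox* and *Gabrg1* held out, and clusters were named from marker genes. Names may therefore differ from those of the study. Wells hold sorted or picked single cells and no doublet caller was run; 7 of 284 proprioceptor-like wells at e15.5 and 43 of 351 at p1 held at least 3 of 6 glial markers. Counts were summed per library and class (sums of at least 5 wells) and tested with edgeR 4.0.16 (filterByExpr, TMM, quasi-likelihood F test, two-sided, Benjamini-Hochberg over all genes tested, threshold 0.05) in R 4.3.3; the standard error is the absolute log2 fold change divided by the square root of F. Shares are of wells thinned to 10000 UMIs, with exact (Clopper-Pearson) 95% intervals. DESeq2 1.42.0, other normalization, filters, well classes, depths, blocks and left-out libraries were run as alternatives. Added alternatives were chosen after seeing the data. They added wells with glial transcripts, left out e15.5 cluster 9 and p1 clusters 4, 6 and 7, or left out wells with glial markers. Others kept wells of at least 50000 or 100000 UMIs, or used *Malat1* as a covariate or plain library sizes. The fitting step was run on simulated data with 2-fold and 4-fold changes. The stage fit recovered 71% and 94% of them, and 9.34% of its calls were false. Recovery was 68% and 91% against connective tissue (3.64% false) and 59% and 92% for *Tox* against *Gabrg1* at e15.5 (6.21% false). For *Tox* against *Gabrg1* at p1 it was 27% and 78% (9.48% false).

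Genes named are the members, up to 8 list genes in each direction of the stage test and 5 of the connective tissue test by size of change among those called, the nearest gene in pattern to each member (that of *Asic3* is not reported here), markers, and genes overlapping a member. Replicate numbers did not pair the libraries of the 2 stages. Class and *Tox* against *Gabrg1* comparisons share libraries, so the library was used as a block there as an alternative. Between same-library sums the correlation of deviations had a median of 0.153 over 26 class pairs, 0.316 over 3 pairs at e15.5 and 0.217 over 2 pairs at p1. Figures were drawn with Matplotlib 3.10.9.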

Additional observations from a re-analysis of the deposited data

Results flagged for a closer look

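In 35 groups of 4 to 10 libraries the lowest and highest library were compared with the rest by Dixon's test, which picks about 1 in 20 groups by chance, and 4 groups held a library that stood apart. *Whrn* in p1 proprioceptor-like wells was highest in replicate 1, at 87.0 CPM (78 wells, 720 UMIs), where the nearest library was at 58.4, and without that library the log2 fold change between the stages was 2.14. *Tmem150c* in e15.5 glia-like wells was lowest in replicate 6, at 0 CPM over 5 wells, where the nearest library was at 11.7. *Piezo1* in the unnamed e15.5 cluster 1 was at 2.94 CPM in replicate 3 and *Asic3* in the same cluster at 3.84 CPM in replicate 1, each on 1 UMI, with the other libraries at 0.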

How the results depend on the processing

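Under the alternatives run for the stage test *Whrn* kept its call throughout. *Piezo2* and *Asic2* lost theirs with *Malat1* as a covariate, and 1 member was then called among 4163 genes. *Asic3* lost its call there too, and in wells of at least 50000 (-0.50) or 100000 UMIs (-0.31). It also lost it without e15.5 cluster 9 and p1 clusters 4, 6 and 7 (-0.46), where *Piezo2* was at 0.69. Among proprioceptor-like clusters, e15.5 cluster 9 held the lowest *Piezo2* of its stage (218 CPM), and p1 clusters 6 and 7 the highest of theirs (2799 and 2681). Thinning called 3888 genes and put *Piezo2* at 1.54. Plain library sizes put *Whrn* at 2.10, *Asic2* at 0.88, *Piezo2* at 0.71 and *Asic3* at -0.79, all with their calls kept. *Asic1* changed sign at -0.11 without a count filter, -0.033 with sums of at least 10 wells, -0.13 with *Malat1* and -0.17 with plain library sizes, and *Tmem150c* at -0.069 without a filter, -0.021 thinned, -0.028 in wells of at least 100000 UMIs and -0.14 with plain sizes. Leaving out 1 library gave -0.029 to 0.091 for *Asic1* and -0.011 to 0.15 for *Tmem150c*. With the replicate block 6259 genes were called; the numbers share nothing else (r from -0.283 to 0.247 over 6 pairs). The causes were not tested.

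Thinning called 6819 genes against connective-tissue-like, 3684 with 3 members against glia-like and 589 with 1 member against nociceptor-like sums. Classing wells by their own markers gave 3809 genes and 1 member for glia, and the block 1 member for nociceptors, where leaving out 1 library gave 1080 to 2440 genes and 1 to 4 members. *Whrn* gained a call against connective tissue with sums of at least 10 wells, quantile filters and DESeq2. For *Tox* against *Gabrg1* at e15.5 the genes and members called were 765 and 3 without a filter, 186 and 0 with at least 10 wells (1 *Gabrg1* sum against 2 *Tox* sums, the lone sum being assumed to vary like the others), 35 and 0 thinned, 230 and 2 by own markers, 219 genes with quantile filters, and 0 members with the block; leaving out 1 library gave 148 to 349 genes and 0 to 1 members. *Asic2* turned to -0.15 with the block and with quantile filters. At p1 the counts were 279 without a filter, 308 with the block, 47 with at least 10 wells, 6 thinned and 39 to 92 without 1 library; *Asic3* turned to -0.22 with the block, and *Piezo2* to 0.37 with the block, 0.063 with quantile filters, 0.19 by own markers and -0.30 to 0.10 without 1 library. Sums of glia-like and nociceptor-like wells gave no value with at least 10 wells or quantile filters, nor nociceptor-like sums by own markers.

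Shares of proprioceptor-like wells depended on depth. Without thinning they were, at e15.5, 7.39% for *Piezo1*, 66.9% for *Asic2*, 73.9% for *Asic3*, 57.0% for *Whrn* and 89.8% for *Tmem150c*, and at p1 2.56% for *Piezo1*, 95.2% for *Asic1*, 67.2% for *Asic2*, 45.0% for *Asic3*, 71.2% for *Whrn* and 72.9% for *Tmem150c*. With at least 2 UMIs after thinning they were, at e15.5, 67.6% for *Asic1*, 1.76% for *Asic2*, 7.04% for *Asic3*, 0.704% for *Whrn* and 12.0% for *Tmem150c*, and at p1 98.9% for *Piezo2*, 55.6% for *Asic1*, 5.70% for *Asic2*, 2.28% for *Asic3*, 12.0% for *Whrn* and 8.55% for *Tmem150c*. Over the alternatives that left no library out, 262 values of single genes kept their direction and side of the threshold. Another 23 lost a call, 9 gained one and 14 changed sign. Of the levels, shares and counts 151 held and 47 moved. A level or share held when it moved by no more than the spread between libraries. A count held when it stayed within a set ratio of the main count.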

Other observations

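The unnamed e15.5 wells differed in the members they held. Cluster 11 (25 wells, led by *Gap43*, *Ngfr*, *Prph* and *Ret*) was at 1143 to 1282 CPM for *Piezo2*, 82.2 to 126 for *Asic3* and 62.3 to 110 for *Tmem150c* over 3 libraries, with *Whrn* at 0 to 7.44 and *Asic1* at 76.8 to 84.6. Its *Asic3* level lay above every proprioceptor-like library and its *Asic1* level below every one. Cluster 17 (18 wells, led by *Maf*, *Lamp5* and *Grm5*) held *Asic1* at 876 CPM when pooled, on 281 UMIs, and *Piezo2* at 18.7, on 6 UMIs, while *Asic2*, *Asic3* and *Piezo1* had no UMI, which allows up to 3 UMIs each. Cluster 1 (64 wells, led by *Zic1* and *Nnat*) held *Asic1* at 134 to 645 CPM over 5 libraries and *Piezo2* at 12.6 to 44.1. These differences were not tested.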
